A study of Komagataella phaffii with 15 samples.

Results

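Of the 5341 transcripts measured by RNA-Seq in *Komagataella phaffii*, 56 had higher levels at slow than at fast growth in both the *flo8Δ* and the wild-type strain, and levels within a log2 ratio of 1 between the 2 strains. *K. phaffii* (syn. *Pichia pastoris*) is a methylotrophic yeast used as a protein production host. The cells were grown in glucose-limited chemostats, in which the rate of medium feed sets the growth rate. Samples were taken at S1 (0.1 h-1, fast), S3 (0.05 h-1, slow) and S5 (0.1 h-1, after the switch back). The groups were *flo8Δ* S1 and S3 and wild-type S1, S3 and S5, each with 3 replicates, and no *flo8Δ* S5 sample was analysed here. Both strains are CBS7435, and *flo8Δ* differs by a disruption of PP7435_Chr4-0252 (*FLO8*) that removes a stretch of promoter and the beginning of the reading frame, with the selection marker taken out again. It is a single deletion strain, and since a chemostat was taken through S1, S3 and S5 one after another, samples of 1 strain may stem from shared cultures, which the fits treat as independent.

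The members were chosen by their measured values. A member has a log2 ratio of S3 over S1 (mean normalized count plus 1) of at least 0.5 in each strain, a mean normalized count of at least 20 at S3 in each strain, and a log2 ratio between the strains within 1 in either direction at S1 and at S3. *FLO300* (PP7435_Chr4-1020), a flocculin gene, was left out by name. The S3 over S1 ratios and the strain ratios are therefore a description without a test. Only the wild-type S5 libraries, which took no part in the choice, were tested, against wild-type S3 and S1 libraries that did. The choice thus favours a fall from S3 and a rise over S1, also in the p-values of single members. All 56 members passed the filter on low values in both S5 comparisons. PP7435_Chr4-1018, with 4 to 19 reads in wild-type S1, passed it against S1 only through the S5 libraries.

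Growth rate is one of the strongest determinants of a yeast's transcriptome. In *Saccharomyces cerevisiae*, slow growth on scarce glucose is known for raised transcripts of stress defence, storage carbohydrates, respiration and use of other carbon sources, and for lowered transcripts of ribosome production. *FLO8* encodes a regulator that in *S. cerevisiae* drives the flocculin genes needed for pseudohyphal growth, in which cells stay attached in chains. *K. phaffii* is known for pseudohyphal growth at slow growth rates. The deposited files identify a transcript by its locus tag alone and do not pair it with a gene product, so the members are described by tag, level and pattern, and no role is given to any of them.

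Between 4163342 and 10843287 reads assigned to transcripts per library lay behind the normalized counts. The lowest depths were those of *flo8Δ* S1 replicate 2 and wild-type S1 replicate 3 (4632193 reads). No 2 replicates agreed within sampling noise, and the largest chi-square per degree of freedom between replicates were those of wild-type S5 replicate 3 with replicates 1 and 2 (48.8 and 61.0) and of wild-type S1 replicates 2 and 3 (50.4). By the mean correlation with the other replicates of its group, wild-type S1 replicate 3 was lowest (0.981) and wild-type S5 replicate 3 the next (0.985). Levels are given in TPM, a transcript abundance corrected for transcript length and library depth, computed from those reads and the effective transcript lengths. *FLO8* itself had 28.2 ± 3.88 and 32.6 ± 2.69 TPM in *flo8Δ* at S1 and S3, and 36.2 ± 3.20, 33.7 ± 0.621 and 27.1 ± 3.14 TPM in wild-type S1, S3 and S5 (SD, n = 3), and since most of its transcript lies outside the deletion this does not check the labels. *FLO11* (PP7435_Chr2-0267), a flocculin gene needed for pseudohyphal growth in *S. cerevisiae*, had 0.172 to 0.448 TPM in the *flo8Δ* S3 libraries, against 38.0 to 79.0 TPM in the wild-type S3 libraries. *ACT1* (PP7435_Chr3-0993), actin, ranged over all libraries between 1418 and 1813 TPM.

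Summed over the 56 members, transcripts came to 28203 ± 1315 TPM in *flo8Δ* S3, against 14336 ± 986 TPM in *flo8Δ* S1 (SD, n = 3). In the wild-type strain the sum was 12180 ± 272 TPM at S1, 24397 ± 95.3 TPM at S3 and 15248 ± 1594 TPM at S5. The members thus took 2.82% of all TPM in *flo8Δ* S3 and 1.43% in *flo8Δ* S1, and 1.22%, 2.44% and 1.52% in wild-type S1, S3 and S5. Every S3 library held a larger sum than every S1 and S5 library. The members were chosen as higher at S3 than at S1, so a larger sum at S3 than at S1 follows from the choice. A lower sum at S5 than at S3 is favoured by it. Most of each sum, 69.9% to 75.2% by group, came from 6 members. These are bulk samples, in which fewer cells of a kind and less RNA per cell cannot be told apart.

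**Figure D1:**
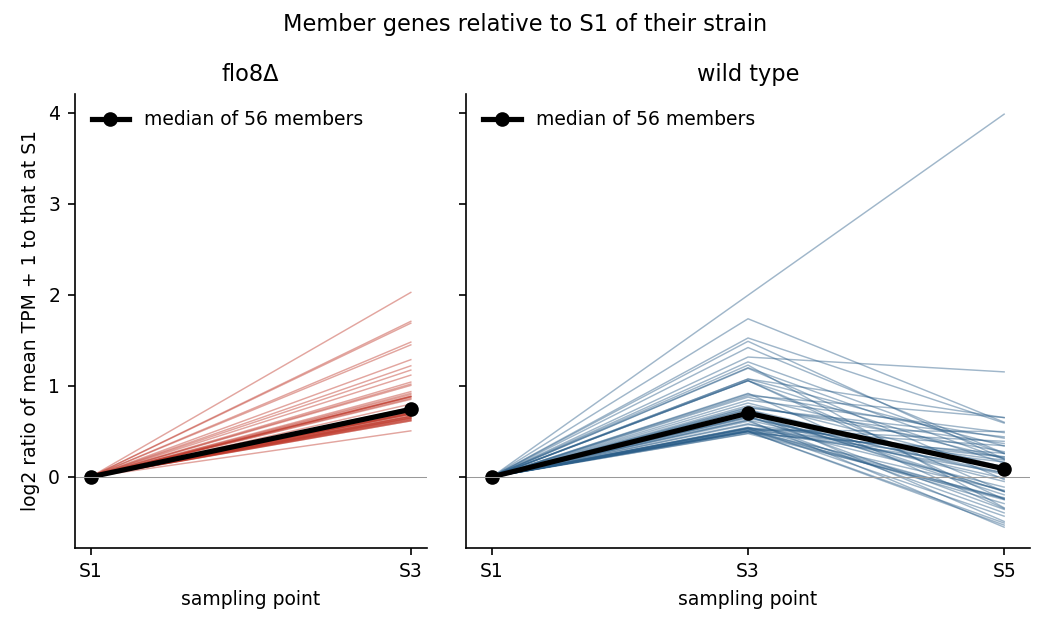
Lines show each of the 56 members as the log2 ratio of its mean TPM plus 1 to that at S1 of the same strain, for flo8Δ (left) and the wild-type strain (right) over the sampling points, and the black line is the median of the members. The wild-type median is 0.70 at S3 and 0.09 at S5. For S5 over S1, the median of all genes tested was -0.12 in log2(TPM + 1), and the member median in normalized counts was 0.21. PP7435_Chr4-1018 is the line that goes on upwards.

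The log2 ratio of S3 over S1 lay between 0.51 and 2.42 in *flo8Δ*, with a median of 0.63, and between 0.51 and 3.06 in the wild-type strain, with a median of 0.74. The median over all genes was 0.00 in each strain. Most members sat near the limit that chose them: the smaller of the 2 ratios was under 0.75 for 43 of the 56, and 8 members had a ratio of at least 1 in both strains. Every S3 library was above every S1 library for 54 members in *flo8Δ* and for 55 in the wild-type strain, where 22.4% and 25.1% of all genes were so placed. These counts follow from the choice of the members.

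Fewer genes reached the limit in *flo8Δ* than in the wild-type strain. With the same minimum at S3 and without *FLO300*, 123 genes reached a ratio of 0.5 in *flo8Δ* and 363 in the wild-type strain, beside 2.45% and 6.95% of all genes that reached it without a minimum. The 66 genes on both lists were 53.7% of the *flo8Δ* list and 18.2% of the wild-type list. The limit on the strain ratios then removed 10, of which 8 were lower in *flo8Δ* at S3.

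The 2 ratios of a member lay within 0.25 of each other for 38 members and over 0.5 apart for 7. The wild-type ratio was the larger for 35. Both ratios took part in the choice, and the limit on the strain ratios bounds how far they can part. These counts therefore describe the list only, and the shares over all genes were not computed. PP7435_Chr4-0863 had the widest gap in one direction, with 0.51 in *flo8Δ* and 1.56 in the wild-type strain. PP7435_Chr3-1219 had the widest in the other, with 1.95 in *flo8Δ* and 1.26 in the wild-type strain. The members just inside the limit by their smaller ratio were PP7435_Chr4-0863 (0.51), PP7435_Chr3-0512 (0.51) and PP7435_Chr1-1555 (0.51), and the genes just outside were PP7435_Chr2-0526 (0.496), PP7435_Chr1-0169 (0.49) and PP7435_Chr1-0517 (0.49).

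**Figure D2:**
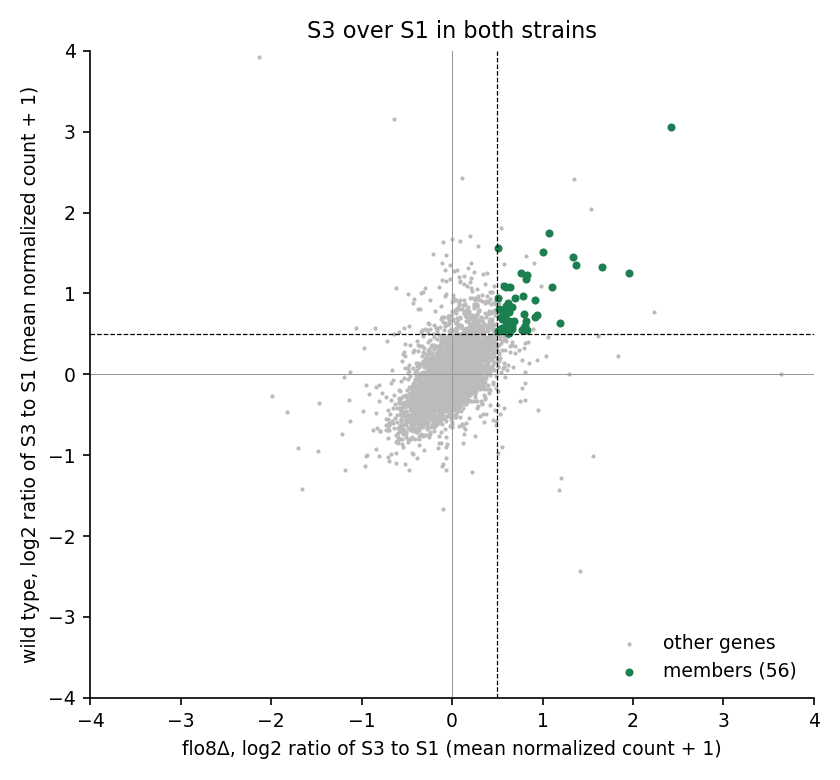
Each point is a gene, with its log2 ratio of S3 over S1 in flo8Δ on the horizontal axis and in the wild-type strain on the vertical axis, and dashed lines mark the limit of 0.5. The 56 members, in green, fill the corner beyond both lines, 8 of them at 1 or more on both axes, and grey points in that corner failed the minimum at S3 or the strain limit or are FLO300.

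In level the members spanned 4.16 to 3231 mean TPM over the 15 libraries, with a median of 66.3 TPM. Only 6 lay above 1000 TPM, 3 lay between 300 and 1000 TPM, 38 between 20 and 300 TPM, and 9 below 20 TPM. The 6 abundant members made up 75.2% of the summed TPM in *flo8Δ* S3 and 72.7% in *flo8Δ* S1, and 69.9%, 71.9% and 74.4% in wild-type S1, S3 and S5.

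PP7435_Chr1-1283 was the most abundant member, averaging 3231 TPM over all libraries. It had 6682, 6152 and 5625 TPM in *flo8Δ* S3, against 2012, 2591 and 2153 TPM in *flo8Δ* S1. Its wild-type libraries had 1631, 1512 and 1625 TPM at S1, 4085, 4198 and 4485 TPM at S3 and 1920, 1510 and 2280 TPM at S5. No S3 library overlapped with a fast-growth library of its strain, and the log2 ratios were 1.34 in *flo8Δ* and 1.45 in the wild-type strain.

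PP7435_Chr4-0424 reached about the same ratio in each strain, 1.37 in *flo8Δ* and 1.35 in the wild-type strain. It had 2198, 2175 and 2315 TPM in *flo8Δ* S3, against 802, 954 and 639 TPM in *flo8Δ* S1. The wild-type strain had 743, 587 and 545 TPM at S1, 1840, 1541 and 1292 TPM at S3 and 1646, 1402 and 1126 TPM at S5. Unlike PP7435_Chr1-1283, this transcript overlapped between S3 and S5, and no S5 library reached down to an S1 library.

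PP7435_Chr1-0726 had 2907, 2948 and 2685 TPM in *flo8Δ* S3, against 1290, 1395 and 1250 TPM in *flo8Δ* S1. Wild-type values were 886, 1042 and 996 TPM at S1, 2400, 2753 and 3059 TPM at S3, and 997, 779 and 1576 TPM at S5. S1 and S5 overlapped, with S5 replicate 3 alone above the rest.

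PP7435_Chr4-0381 had 4089, 4177 and 3412 TPM in *flo8Δ* S3, against 2389, 2531 and 2350 TPM in *flo8Δ* S1. In the wild-type strain it was measured at 1512, 1687 and 1053 TPM at S1, 2891, 2976 and 3096 TPM at S3 and 2023, 1646 and 3006 TPM at S5. In TPM, S5 replicate 3 lay within the S3 range and S5 replicate 2 within the S1 range, whereas in normalized counts every S5 library was above every S1 library.

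The other abundant members had small ratios. PP7435_Chr1-1555 averaged 3600 ± 166 TPM in *flo8Δ* S3 and 2150 ± 155 TPM in *flo8Δ* S1, and PP7435_Chr4-0169 averaged 2483 ± 153 and 1489 ± 85.1 TPM in the same groups (SD, n = 3). Their wild-type means were 2157 ± 127, 3008 ± 282 and 2581 ± 385 TPM at S1, S3 and S5 for PP7435_Chr1-1555, and 1746 ± 35.8, 3003 ± 221 and 2115 ± 463 TPM for PP7435_Chr4-0169. The ratios were 0.63 and 0.62 in *flo8Δ*, and 0.51 and 0.81 in the wild-type strain.

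Below 300 TPM, 4 members besides PP7435_Chr4-1018 had log2 ratios above 1 in both strains. PP7435_Chr1-1423 had 57.1, 47.3 and 47.9 TPM in *flo8Δ* S3, against 15.9, 14.6 and 14.0 TPM in *flo8Δ* S1, a ratio of 1.66. In wild-type libraries it had 28.9, 20.2 and 25.1 TPM at S1, 63.0, 60.7 and 58.3 TPM at S3, and 36.2, 26.6 and 26.1 TPM at S5. Here the *flo8Δ* S1 libraries were all below the wild-type S1 libraries.

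PP7435_Chr3-1219 had 102, 89.5 and 98.6 TPM in *flo8Δ* S3, against 22.1, 30.4 and 16.6 TPM in *flo8Δ* S1. Its wild-type mean was 32.9 ± 7.66 TPM at S1, 76.6 ± 2.13 TPM at S3 and 32.2 ± 9.33 TPM at S5 (SD, n = 3). PP7435_Chr1-0122 averaged 247 ± 17.9 TPM in *flo8Δ* S3 and 105 ± 12.4 TPM in *flo8Δ* S1, and 158 ± 17.8, 330 ± 5.72 and 141 ± 21.4 TPM in wild-type S1, S3 and S5. For both, the S5 mean differed from the S1 mean by less than the spread between replicates.

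PP7435_Chr3-0880 had 498, 476 and 293 TPM in *flo8Δ* S3, against 185, 155 and 221 TPM in *flo8Δ* S1. The wild-type values were 113, 131 and 50.3 TPM at S1, 335, 315 and 338 TPM at S3 and 123, 126 and 199 TPM at S5. The low S1 library was replicate 3, one of the shallowest, and without that library the gene's S5 over S1 log2 fold change was 0.34 in place of 0.80.

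**Figure D3:**
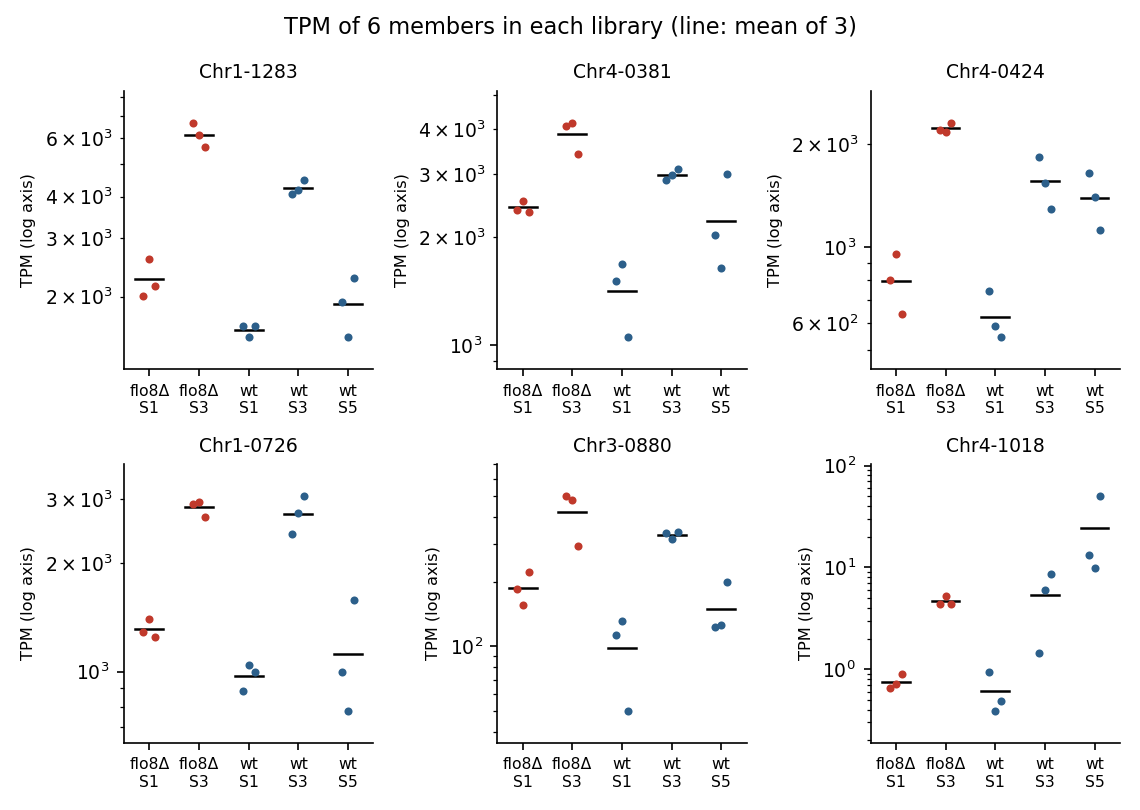
TPM on a log axis for 6 members in each of the 15 libraries, with flo8Δ in red and the wild-type strain (wt) in blue, 1 point per library and a line at the mean of the 3. In 5 of the 6 panels the S3 mean is the highest of the wild-type strain, and PP7435_Chr4-1018 is highest at S5 (24.4 TPM, against 5.39 TPM at S3).

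Levels in the 2 strains differed little, as the choice required. The log2 ratio of *flo8Δ* over the wild-type strain lay between -0.83 and 1.00 at S1 and between -0.79 and 0.57 at S3, with medians of -0.06 and -0.09. By their means, 27 members were higher and 29 lower in *flo8Δ* at S1, and 24 were higher and 32 lower at S3. The highest at S1 was PP7435_Chr3-0880 and the lowest PP7435_Chr4-0912, with 7.62 ± 2.04 TPM in *flo8Δ* and 14.5 ± 0.705 TPM in the wild-type strain (SD, n = 3).

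What happened after the switch back to fast growth was measured in the wild-type strain alone. At S5, 40 of the 56 members were lower than at S3 and 1 was higher (limma, adjusted p under 0.05), where 20.8% and 18.0% of the 5311 genes tested were called lower and higher. Every S5 library was below every S3 library for 40 members, beside 26.3% of all genes. The median log2 fold change of S5 over S3 was -0.67 for the members and -0.00 for all genes tested, and 54 of 56 members had a negative value. The S3 libraries had chosen the members as high, which favours a fall from S3. Of the 297 genes that met the limit and the minimum at S3 in the wild-type strain and not both in *flo8Δ* (1 of them reached the ratio there with a mean under 20), 224 were lower at S5 than at S3 (75.4%, beside 71.4% of the members), and their median was -0.67. The difference between the 2 lists was not tested.

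The fall was deepest for PP7435_Chr1-0813, by 1.50 on the log2 scale with a standard error of 0.11 (limma, adjusted p = 4.0e-05). It had 99.2, 82.5 and 111 TPM at S5, against 250, 287 and 336 TPM at S3 in the wild-type strain, and the S1 libraries had 112, 145 and 115 TPM. PP7435_Chr1-0726 changed by -1.28 ± 0.20 and PP7435_Chr1-1283 by -1.11 ± 0.11 (log2 fold change ± standard error; limma, adjusted p = 0.0019 and 0.00022). PP7435_Chr1-0813 was picked out after its values were seen.

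With the thresholds of the study, which also ask for a log2 fold change beyond 1, 13 members were lower at S5 than at S3, beside 2.33% of all genes, and 1 was higher, beside 0.0565%. On the kallisto estimated counts, which hold a small part of the reads, 46 members could be tested, of which 11 were lower, all of them among the 40, and 1 was higher, beside 12.9% and 7.49% of the 4101 genes tested. Without S5 replicate 3, 45 members were lower, beside 27.8% of all genes.

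Set against S1, at the same growth rate, most members were not called different at S5. Of 56, 5 were higher at S5 than at S1 and 0 were lower (limma, adjusted p under 0.05), where 1.34% and 2.20% of all 5311 genes were called higher and lower. At an unadjusted p under 0.05 the counts were 16 higher and 4 lower, beside 12.4% and 13.5% of all genes, and by DESeq2 10 higher and 0 lower, beside 4.90% and 5.99%. Every S5 library was above every S1 library for 16 members (28.6%), beside 15.6% of all genes, and below for 6, beside 16.0%. The median log2 fold change was 0.21 for the members and 0.00 for all genes tested, with 35 members positive and 21 negative. The S1 libraries had chosen the members as low, which favours a rise over S1, and the 297 genes of the wild-type strain alone had a median of 0.09, with 10 of the 296 tested called higher (3.38%).

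The members higher at S5 than at S1 were PP7435_Chr4-1018, PP7435_Chr4-0424, PP7435_Chr2-0790, PP7435_Chr4-0039 and PP7435_Chr1-0881, and for each of them every S5 library lay above every S1 library. PP7435_Chr4-0424 was higher by a log2 fold change of 1.27 ± 0.20 (standard error; limma, adjusted p = 0.021) and did not pass the test against S3 (-0.09; limma, adjusted p = 0.74). PP7435_Chr2-0790 had 343, 248 and 308 TPM at S5, against 201, 142 and 228 TPM at S1, a log2 fold change of 0.79 ± 0.15 (standard error; limma, adjusted p = 0.036), and its S3 libraries, at 399, 353 and 311 TPM, overlapped with S5. These 2 members were higher than at S1 without being called lower than at S3.

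PP7435_Chr4-0039 and PP7435_Chr1-0881 lay in between, lower than at S3 and higher than at S1. PP7435_Chr4-0039 had 17.4, 17.4 and 21.2 TPM at S1, 32.7, 35.4 and 39.5 TPM at S3 and 25.6, 23.6 and 26.8 TPM at S5. PP7435_Chr1-0881 had 96.5, 88.7 and 89.6 TPM at S1, 157, 158 and 151 TPM at S3 and 131, 106 and 136 TPM at S5, with log2 fold changes of 0.56 over S1 (limma, adjusted p = 0.028) and -0.26 over S3 (limma, adjusted p = 0.033). The sampling points did not overlap for either gene.

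Most calls over S1 depended on single libraries. Without wild-type S5 replicate 1, 0 members and 0 genes of the table were higher. Without S1 replicate 1 it was 1 member (PP7435_Chr4-1018), beside 0.0188% of all genes, and without S5 replicate 2 the same member, beside 0.113%. The calls over all genes thus fell as well. Without S5 replicate 3 it was 9 members, with 4 lower, beside 4.80% and 4.42% of all genes. Without S1 replicate 3 it was 5 members, with 0 lower, beside 1.34% and 3.24%. Blocking on the replicate number, 7 members and 240 genes (4.52%) were higher at S5 than at S1, in place of 5 members and 71 genes, and in log2(TPM + 1) it was 2 members, beside 0.301% of all genes. With a log2 fold change beyond 1 it was 2 members higher, beside 0.0941% of all genes, and 0 lower, beside 0.301%.

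The lowest S5 over S1 values were those of PP7435_Chr3-0782 (-0.48, adjusted p = 0.11 from limma), PP7435_Chr3-0512 (-0.45, adjusted p = 0.098) and PP7435_Chr4-0912 (-0.44, adjusted p = 0.089). PP7435_Chr3-0782 had 56.6, 61.7 and 64.1 TPM at S1, 87.9, 92.9 and 102 TPM at S3 and 38.2, 30.8 and 54.4 TPM at S5. PP7435_Chr3-0512 had 71.0, 65.0 and 68.7 TPM at S1, 95.6, 98.1 and 96.7 TPM at S3 and 45.8, 35.8 and 59.2 TPM at S5. In these members every S5 library was below every S1 library, and the differences did not pass the adjusted threshold.

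Taking both S5 comparisons, 38 members were lower than at S3 and not called against S1, and of these 18 had a positive S5 over S1 value and 20 a negative one, between -0.48 and 0.80. A further 2 were lower than at S3 and higher than at S1, 2 were not called against S3 and higher than at S1, 1 was higher than at both, and 13 were called in neither. The 13 had log2 fold changes from -0.70 to 0.05 over S3 and from -0.04 to 0.75 over S1. Both comparisons use the same S5 libraries. The share of all genes in each of these states was not computed. Of all genes, 20.8% were lower and 18.0% higher than at S3. Against S1, 1.34% were higher and 2.20% lower, so not being called against S1 was the state of most genes. S5 replicate 3 had the highest TPM of its group for 38 of the 56 members and the lowest for 12, beside 66.5% and 19.9% of all genes.

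**Figure D4:**
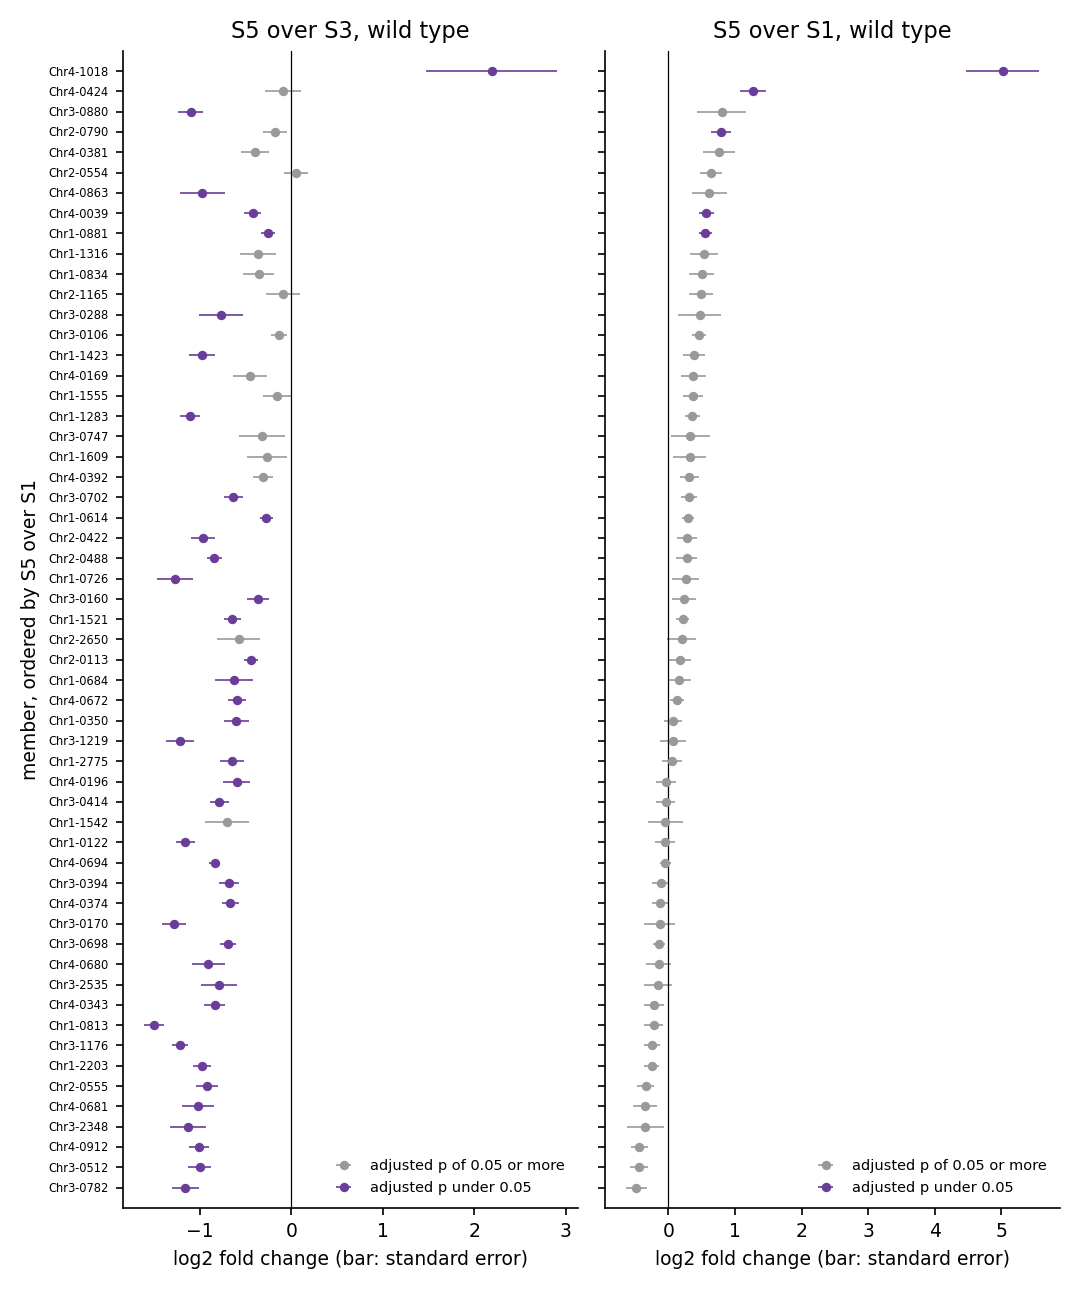
Log2 fold changes of the 56 members in the wild-type strain, S5 over S3 (left) and S5 over S1 (right), with standard errors from limma, ordered by S5 over S1 with the highest at the top. Purple marks an adjusted p under 0.05: on the left 40 members below 0 and 1 above, on the right 5 above 0 and 0 below.

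PP7435_Chr4-1018 stood apart from the other members. It had 4.38, 5.21 and 4.36 TPM in *flo8Δ* S3, against 0.658, 0.713 and 0.892 TPM in *flo8Δ* S1. Wild-type libraries had 0.934, 0.391 and 0.483 TPM at S1, 1.43, 6.06 and 8.68 TPM at S3 and 13.2, 9.75 and 50.1 TPM at S5. It was the only member whose mean TPM was higher at S5 than at S3 (in normalized counts PP7435_Chr2-0554 also had a positive log2 fold change, 0.05, not past the threshold), and within S3 and within S5 its libraries differed by several fold.

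Its log2 fold change was 5.02 ± 0.55 for S5 over S1 (standard error; limma, adjusted p = 0.011) and 2.19 ± 0.72 for S5 over S3 (limma, adjusted p = 0.041). The call against S3 was lost without S3 replicate 1, S3 replicate 2 or S5 replicate 1, with values from 1.44 to 2.69 as single libraries were left out. The reads behind it were few, 6 to 18 per library in *flo8Δ* S1 and 4 to 19 in wild-type S1, against 183 to 859 in wild-type S5. Against S1 it thus passed the filter only through S5, where it was high, which favours its call over S1. With 10 counts asked for in every library it was not tested over S1. In that setting 4 of the 55 members tested were higher, beside 1.32% of all genes.

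Its locus tag stands 2 numbers before that of *FLO300*, which met the same ratios and was left out by name. *FLO300* had 27.9, 26.9 and 21.9 TPM in *flo8Δ* S3, against 9.44, 10.2 and 8.34 TPM in *flo8Δ* S1. In the wild-type strain it had 9.84, 6.17 and 8.0 TPM at S1, 11.8, 42.8 and 72.2 TPM at S3 and 84.9, 58.2 and 340 TPM at S5. The wild-type libraries stood in the same order for both transcripts within S3 and within S5, with replicate 3 highest. Replicate 3 was also the highest of its group for 50.4% of all genes at S3 and 66.5% at S5. The share of all genes with the whole order was not computed. The tags alone do not show whether the 2 loci share sequence or reads.

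Beyond their values, the members shared little that the files record. By their tags, 17 of 1626 genes on chromosome 1 were members, 8 of 1358 on chromosome 2, 16 of 1292 on chromosome 3 and 15 of 1049 on chromosome 4, and 0 of the 16 mitochondrial genes. That is 1.05%, 0.589%, 1.24% and 1.43% of the genes of the 4 chromosomes. Only 2 pairs of members carried consecutive numbers, PP7435_Chr2-0554 with PP7435_Chr2-0555 and PP7435_Chr4-0680 with PP7435_Chr4-0681.

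The members of the pair on chromosome 2 parted at S5. PP7435_Chr2-0554 had a log2 fold change of 0.05 over S3 and 0.64 over S1, neither past the threshold, and PP7435_Chr2-0555 one of -0.92 over S3 (limma, adjusted p = 0.00077) and -0.34 over S1. The pair on chromosome 4 had like values, -0.91 for PP7435_Chr4-0680 and -1.02 for PP7435_Chr4-0681 over S3, both past the threshold (limma, adjusted p = 0.0061 and 0.0030).

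The transcripts of the members had a median length of 999 bases, against 1170 for all genes, and ranged from 153 to 2385 bases. The deposited kallisto estimated counts held a median of 2.40% of the reads of a member, against 2.80% over all genes, but over 20% for 8 members (14.3%, beside 19.6% of all genes). PP7435_Chr3-2535 (92.2%), PP7435_Chr3-0288 (90.5%), PP7435_Chr3-2348 (51.5%) and PP7435_Chr1-1609 (50.2%) held the most. Of the 8, 7 were lower at S5 than at S3, beside 33 of the other 48 members and 20.8% of all genes. The choice favours a fall from S3 in every member. PP7435_Chr4-0039, 1 of the 7, was also higher at S5 than at S1, beside 1.34% of all genes. PP7435_Chr1-1609 was called in neither comparison. What sets this share, and its part in the values of these members, was not tested.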

How the data were processed

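RNA-Seq of 15 libraries was analysed, with 3 replicates of each of 5 groups. As the methods state, poly-A single reads were trimmed, pseudoaligned to CBS7435 transcripts by kallisto 0.43.1, passed through tximport and compared pair by pair with DESeq2 1.14.1. For every library the authors deposited estimated counts and TPM from kallisto (in wild-type S1 replicate 1 as a fraction, deposited with a total of 1), and 6 tables of normalized counts, a signal scaled by DESeq2 within each table of 6 libraries. The columns were read as S1, S3 and S5 from their names and the order of growth rates in the design text. A stranded setting is named for the kallisto files, and that behind the tables is not given in the sources used here.

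Dividing each column by its step recovered whole reads (100% of values within 0.01 of a whole number, in 2 tables after removing a factor of the gene of up to 0.14%, and 0 differences between tables). The estimated counts summed to 5.06% to 6.11% of these reads. Precision follows depth, 4163342 to 10843287 reads per library.

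The members, lists and tests were chosen with earlier results of these data known. Members were selected by the stated rule on mean normalized counts. The test was limma 3.58.1 in R 4.3.3 with a trended prior on log2(normalized count + 1) of 1 table, for genes that reached 10 normalized counts in 3 or more of 6 libraries, with Benjamini-Hochberg adjustment over all genes tested, and called at an adjusted p under 0.05. The fits were also run on simulated data. These had independent libraries and the same spread for every gene, so outlying libraries and shared cultures were not covered. Alternatives were no filter, 10 counts in every library, pseudocounts of 0.1 and 10, the replicate number as a block, all 15 libraries in 1 fit, log2(TPM + 1), edgeR 4.0.16 (TMM, RLE) and DESeq2 1.42.0 on the recovered reads, edgeR on rounded estimated counts, and each library left out.

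Replicate numbers were taken to pair the samples where the deviations of all 3 same-numbered pairs correlated above 0.1. S5 and S1 met this (0.15, 0.18 and 0.19), and S5 and S3 did not, since 1 of the 3 was negative (0.43, -0.19 and 0.57). S5 replicate 2 correlated more with S3 replicate 1 (0.51) than with S3 replicate 2. This pairing comes from the correlations alone, so the block is an alternative. It was fitted in both comparisons, although S5 and S3 did not meet the limit.

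Named members were the 12 with the largest smaller ratio, the 5 of highest mean TPM, the 5 highest and 5 lowest by S5 over S1, and 3 on either side of the limit. Members named for other reasons (the called, the consecutive tags, the share of estimated counts) were chosen after their values were seen. Of the locus tags, 0 matched the gene table at hand, so gene lists by symbol, coordinates and sequences were not used here.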

Additional observations from a re-analysis of the deposited data

How the results depend on the processing

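The number of members was 56, and between 53 and 73 with other pseudocounts, log2 per library, TPM (73, of which 50 are among the 56) or no strain limit. It was 49 with a minimum of 100 at S3, 8 with a limit of 1, 82 on scaled estimated counts (7 among the 56, an alternative chosen after seeing the data), and 53 to 64 with a library left out. Members lower at S5 than at S3 numbered 40, 13 with a log2 fold change beyond 1, 11 on the estimated counts (12.9% of genes), 46 with the replicate block (24.2%) and 32 to 45 with a library left out. The median of -0.67 was -0.38 on the estimated counts and -0.72 to -0.66 with a library left out. The 1 member higher than at S3, PP7435_Chr4-1018, was 0 in log2(TPM + 1), and 0 to 1 with a library left out. Members higher at S5 than at S1 numbered 5, 2 beyond a log2 fold change of 1, 16 with all 15 libraries in 1 fit (11.5% of genes; 3 lower, against 0, beside 12.8% of genes), 2 in log2(TPM + 1) (0.301%), 10 by DESeq2 (4.90%), 7 with the replicate block (4.52%), 0 on the estimated counts and 0 to 9 with a library left out (0 to 4 lower). Their median of 0.21 was 0.085 in log2(TPM + 1), where all genes shifted by -0.12, and reversed to -0.23 on the estimated counts, and was 0.13 to 0.25 with a library left out. Leaving out PP7435_Chr4-1018, chosen after seeing the data, takes away the 1 higher member over S3 (0), and the 48 members with at most 20% of reads in the estimated counts held 33 of the 40 and 4 of the 5. With 10 counts in every library, 55 members were tested over S1 and 4 were higher (1.32% of genes). The cause was not tested in any of these.

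Among named members, 18 of 740 values reversed. On the estimated counts, S5 over S3 became 0.070 for PP7435_Chr1-1555, 0.12 for PP7435_Chr4-0039, 0.073 for PP7435_Chr4-0169 and 0.36 for PP7435_Chr4-0424, and S5 over S1 became -0.44 for PP7435_Chr1-1423, -0.40 for PP7435_Chr2-0422, -0.55 for PP7435_Chr2-0790, -0.78 for PP7435_Chr3-0702 and -0.52 for PP7435_Chr4-0381. In log2(TPM + 1), S5 over S1 of PP7435_Chr3-1219 was -0.046. With a library left out, S5 over S3 ranged from -0.27 to 0.013 for PP7435_Chr1-1555 and from -0.24 to 0.10 for PP7435_Chr4-0424, and S5 over S1 from -0.17 to 0.076 for PP7435_Chr1-0122 and from -0.071 to 0.28 for PP7435_Chr3-1219. Depth limits PP7435_Chr4-1018 most, with 4 reads in its lowest library.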
